A study of Drosophila melanogaster with 3 samples.

Results

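The 62 genes described here encode parts of the machinery that transcribes messenger RNA in Drosophila melanogaster. There are 25 Mediator genes (MED), 15 TBP-associated factor genes (Taf), 13 RNA polymerase II genes (Polr2) and 9 TfII genes. The TfII genes encode general transcription factors and the elongation factor TfIIS. All 62 were chosen from the 13945 protein-coding genes of the Ensembl models of dm6 by these 4 symbol prefixes, a rule that uses no measured value. Occupancy by the zinc finger protein Zif (CG10267) was measured by ChIP-seq, the sequencing of DNA that is precipitated together with a protein. The embryos were whole, of both sexes and 0 to 24 h old, from a transgenic line that carries Zif with GFP at its C-terminal end, and chromatin sheared to 200 to 800 bp was precipitated through the GFP. The 3 biological replicates form 1 group with no second genotype or treatment, so no contrast between conditions was made. All cell types of the embryo were mixed, and a strong signal in few cells cannot be told apart from a weak signal in many.

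RNA polymerase II transcribes protein-coding genes only after general transcription factors have assembled with it at the promoter. TFIID, made of TBP and the TAFs, recognises the promoter, TFIIA and TFIIB hold it there and place the polymerase, and TFIIE, TFIIF and TFIIH help it open the DNA and start. Mediator is a large complex of head, middle, tail and kinase modules that carries information from DNA-bound activators to the polymerase.

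A gene is called bound where a summit of the authors' final peak set lies within 500 bp of any of its transcription start sites (TSSs). That set rests on the irreproducible discovery rate (IDR), which asks whether peaks keep their order between replicates, and holds 8630 summits with signals from 204 to 8172. Signal is the deposited enrichment value of a peak, in the caller's own units. Relaxed lists of 30000 summits, pooled and for each replicate, hold weaker peaks as well. All summits of the IDR set were among the 8630 strongest of the pooled list. A bound call thus amounts to a pooled signal of at least 204, and does not by itself show a peak in each replicate. For a replicate, the relative signal is its signal at an IDR peak divided by its median over all IDR peaks, so that 1 is a typical IDR peak. Replicate 2 stood apart over the whole set: its median signal at promoter peaks was 2.18 times that at other peaks, against 1.22 in replicates 1 and 3. The files give no read counts, the depth is unknown, and Zif may still be present where no peak was called.

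Among the strongest member peaks were those at Polr2B, Polr2J, MED17 and TfIIA-S, and short stretches from such promoters are shown because they share letters with the strongest Zif peaks of other genes. The search for those letters left out every peak near a member. Among the 817 remaining promoter summits of rank 1 to 1000 by signal, the 8-base word CAACACTG lay within 50 bp of 157 (19.2%) and in 5 of 1634 windows placed 400 bp away (0.306%). For the sites below a looser form was used: this word or either of its 7-base parts within 150 bp of the summit. That form was settled after the members' hits had been seen. The 30-base stretches are 8 of its sites at member summits of rank 1 to 1000. Of 763 summits of other bound genes in these ranks, 52.8% held the looser form, as did 5.70% of windows 700 bp away. Capitals mark the matching letters, each stretch is read 5′ to 3′ on the strand of the word, and the sequence is that of the reference assembly (dm6).
Polr2B, chr3R:14125530-14125559, minus strand: cgcacactttcCAACACTaacagaccggca
MED17, chr3R:18189010-18189039, minus strand: gtgctcaaaaaCAACACTtttttccaggtt
Polr2J, chr2L:17410380-17410409, minus strand: tgggcgttagtCAACACTGtaccggagaat
Polr2J, chr2L:17410597-17410626, plus strand: cttcttgcaacCAACACTGgcagccgatac
TfIIA-S, chr3R:23891042-23891071, minus strand: cgcgtgctaacCAACACTaatctgttgctt
MED6, chr3R:9767765-9767794, plus strand: accgcagttcgCAACACTGcacccagtcgg
MED24, chr3L:8191216-8191245, plus strand: tgtgtgtttttCAACACTGtaggatgggaa
Taf11, chr2L:9763242-9763271, plus strand: ttcgctttttgCAACACTcaaaagttccgc
The site of Polr2B lay 3 bp downstream of the TSS of its neighbour 140up, and that of TfIIA-S 3 bp downstream of its own TSS. Polr2J had 1 site 11 bp downstream of its own TSS and 1 at −29 bp (upstream) from the TSS of its neighbour CG15141. Several sites lay well away from the summit. Measured from it along the member's strand, they were at −126 bp (Polr2B), 93 bp (MED17), 112 and −105 bp (Polr2J) and 121 bp (Taf11). Those of TfIIA-S (49 bp), MED6 (43 bp) and MED24 (−5 bp) were nearer.

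The whole interval upstream of MED28, whose peak was the weakest of all bound members, is also shown. Its DNA replication-related elements (DRE, core TATCGATA) are in capitals. The stretch is chr3R:25476916-25477002, plus strand, and ends 1 bp before the TSS of MED28.
MED28: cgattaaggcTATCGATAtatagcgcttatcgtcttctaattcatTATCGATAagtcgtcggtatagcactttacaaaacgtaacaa
It holds 2 DRE cores and no copy of the word or of its 7-base parts. The intervals upstream of MED17, the strongest Mediator peak (rank 61), and of MED18 hold 1 DRE core each. How often each of these motifs occurred at members and at other genes is given after the occupancy values.

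Zif-GFP occupied the promoters of 46 of the 62 members (74.2%), against a background of 41% of all protein-coding genes. Of the MED genes 17 of 25 were bound (68.0%), of the Taf genes 11 of 15 (73.3%), of the Polr2 genes 10 of 13 (76.9%) and of the TfII genes 8 of 9 (88.9%). With as many of its own strongest peaks as the IDR set holds, replicate 1 gave 48 members (77.4%, background 39.6), replicate 2 gave 51 (82.3%, background 43.7) and replicate 3 gave 40 (64.5%, background 37.8). The mean over replicates was 74.7% ± 9.17 (SD, n = 3), so each replicate put the members above the share of all genes. The means were 76.0% ± 10.6 for MED, 73.3% ± 6.67 for Taf, 71.8% ± 11.8 for Polr2 and 77.8% ± 11.1 for TfII (SD, n = 3 each). All prefixes share the same replicates, so these SDs do not measure differences between prefixes. The prefixes ran from 69.2% (Polr2) to 84.0% (MED) in replicate 1. In replicate 2 they ran from 80.0% (MED and Taf) to 88.9% (TfII), and in replicate 3 from 61.5% (Polr2) to 66.7% (Taf and TfII). Their order thus changed between replicates. The 46 bound members lay at 45 peaks, since Taf10 and Taf10b share 1. No test was made on these counts, because all samples form 1 group and the genes were chosen with results of these data known.

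**Figure D1:**
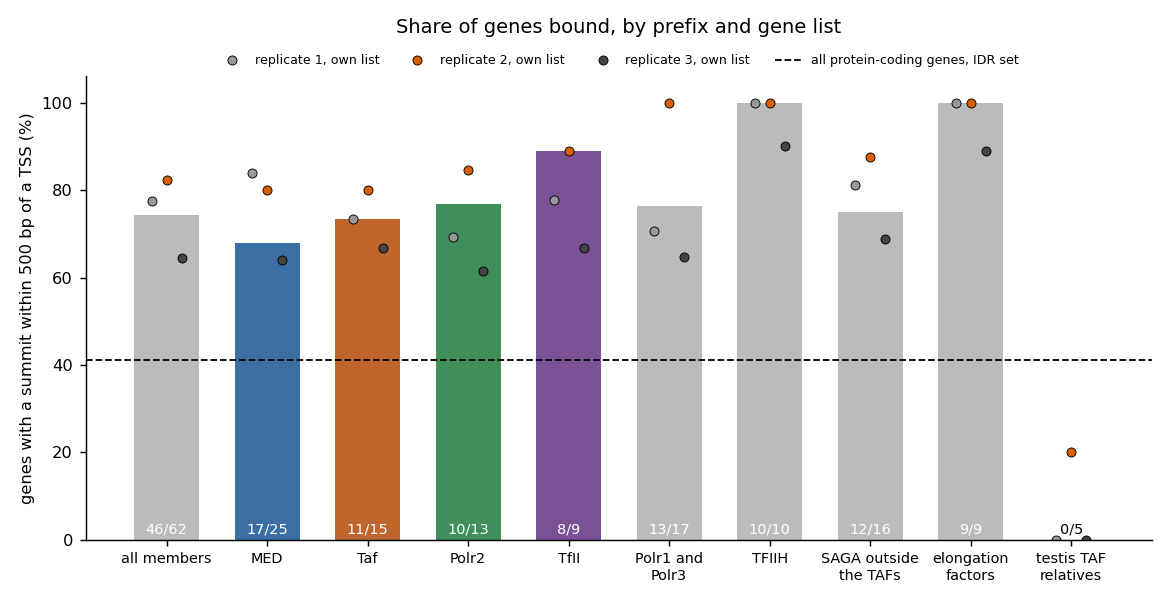
Percent of genes with a summit within 500 bp of a TSS (y axis) for the members, their 4 prefixes and related gene lists (x axis). Bars give the IDR set with the number bound of the number in the list, points the own list of each replicate, and the dashed line the 41% of all protein-coding genes. Every prefix lies above the line in the IDR set and in each replicate, while 0 of 5 testis TAF relatives were bound in the IDR set.

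Many members face another gene across a short promoter, and this arrangement had its own background. A protein-coding gene starting in the opposite direction within 1000 bp was present at 44 members (71.0%), against 36.2% of all protein-coding genes. Of these 44 members 35 were bound (79.5%), and the background among all genes with such a partner was 69.7%. Of the 18 members without a partner 11 were bound (61.1%), against a background of 24.8%. The members' share was thus nearer to its background among genes with a partner than among those without. Without a partner, 2 of 6 MED and 1 of 3 Taf genes were bound (33.3% each). The share was 4 of 5 for Polr2 and 4 of 4 for TfII genes. At 33 of the 46 bound members (71.7%) the strongest summit was also within 500 bp of another protein-coding gene, against 57.9% of all bound genes.

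When a summit was given only to the protein-coding gene with the nearest TSS, 29 members remained bound (46.8%), against 31.4% of all genes. The Taf genes carried much of that loss and went from 11 to 3 of 15 (20%), below the 31.4% of all genes. The MED (44%), Polr2 (61.5%) and TfII (77.8%) genes stayed above that share. Taf9, Taf4 and Taf10b were the bound Taf genes left. For 18 bound members the TSS of another gene was nearer to the strongest summit, among them Taf11 (neighbour und), Taf2 (CalpB), Taf5 (Pex6), Taf6 (ash1, a histone methyltransferase gene) and Polr2A (CG11699). The peaks do not show which gene of such a pair is regulated, if any.

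The catalytic core of RNA polymerase II consists of the subunits encoded by Polr2A and Polr2B, and both were bound. Polr2B (FBgn0262955, chr3R:14125791-14130111) had the strongest peak of all members, with a signal of 4658 and rank 21 of 8630. Its summit lay 120 bp upstream of the TSS and 123 bp upstream of the TSS of 140up, and the signal was 1838, 1545 and 1314 in replicates 1, 2 and 3. Relative signals there were 9.08, 14.6 and 9.25 (mean 10.99 ± 3.17, SD, n = 3), so replicate 2 was the highest and the other replicates were close together. Polr2A, which encodes the largest subunit with the C-terminal repeat domain, had a signal of 1817 (rank 603) and relative signals of 3.70, 5.51 and 3.56.

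Of the subunits that polymerase II shares with polymerases I and III, Polr2F stood highest with a signal of 4258 (rank 43). It has no gene facing it within 1000 bp, and its summit lay 55 bp upstream of its own TSS. The signal was 1769, 1395 and 1149 in the 3 replicates, with relative signals of 8.74, 13.2 and 8.09 (mean 10.02 ± 2.79, SD, n = 3). Polr2H followed at 1218, then Polr2E at 329. Polr2K was the weakest bound Polr2 gene at 209, with signals of 115.3, 57.9 and 27.8. Polr2L was not bound, and its relaxed pooled peak of 93.8 was the weakest among the Polr2 genes. The same class of subunits therefore held a peak of rank 43 and a gene outside the IDR set.

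The other polymerase II subunits were as uneven. Polr2J had a signal of 3825 (rank 78) at the promoter it shares with CG15141. Its signal was 1666, 1189 and 1005 in the replicates, with relative signals of 8.23, 11.3 and 7.08 (mean 8.86 ± 2.17, SD, n = 3). Polr2C (322), Polr2I (274, opposite su(Hw), an insulator protein gene) and Polr2G (230) lay in the lower part of the IDR set. Polr2D was not bound, with a relaxed pooled signal of 183 and 61.7, 78.4 and 58.2 in the replicates. Polr2M, a gene of a polymerase-associated protein, had 132 in the pooled list and 79.6, 44.3 and 19.3 in the replicates.

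The TFIIA genes, whose products steady TFIID on the promoter, spanned the whole range. TfIIA-S had a signal of 3761 (rank 90), with 1592, 1213 and 971 in the replicates and relative signals of 7.86, 11.5 and 6.83 (mean 8.73 ± 2.45, SD, n = 3). TfIIA-S-2 had no peak within 500 bp in the IDR set, the pooled list or any replicate. TfIIA-L, which encodes the large TFIIA precursor, was in between at 816, with relative signals of 1.96, 1.81 and 1.57.

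The remaining TfII genes formed a narrow group. TfIIEalpha had 455, TfIIB 452 and TfIIEbeta 448, each near the relative signal of a typical IDR peak. TfIIEalpha had 0.971, 1.11 and 0.953 in the replicates, a mean of 1.01 ± 0.0863 (SD, n = 3). TfIIS, an elongation factor that helps stalled polymerase resume, had 299 and TfIIFalpha 293. The weakest was TfIIFbeta at 222, with signals of 77.6, 87.2 and 57.4. The summit of TfIIB lay at −284 bp from its TSS (upstream), the farthest of all bound members and still well inside the 500 bp window.

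In the Mediator head, MED17 (FBgn0038578, chr3R:18189072-18191265) had the strongest peak of any Mediator gene, with a signal of 4014 and rank 61. The signal was 1473, 1425 and 1166 in the 3 replicates, and relative signals were 7.27, 13.5 and 8.21 (mean 9.66 ± 3.37, SD, n = 3). MED6 had 2155, with 827, 754 and 608, at a summit 8 bp upstream of its nearest TSS and 11 bp from that of Naa80. MED8 (440) and MED18 (278) followed. MED11, MED20 and MED22 were not bound, so 4 of 7 head genes were (57.1%, background 41%).

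The middle module had 6 of 9 genes bound (66.7%, background 41%), none of rank 1 to 1000. MED7 had a signal of 875, MED31 823, MED4 549, MED9 484, MED10 317 and MED19 266. MED10 had no overlapping relaxed peak in replicate 2, the only bound member of which this was true in any replicate. MED1, MED21 and MED26 were not bound. All 9 middle genes were bound in the own list of replicate 1 (background 39.6%). In that of replicate 2 (background 43.7%) and of replicate 3 (background 37.8%) 6 were bound.

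Of the tail genes 4 of 5 were bound (80%, background 41%). MED24 had a signal of 2065 (829, 746 and 492 in the replicates), MED16 1549, MED25 648 and MED23 395. The summit of MED23 lay 13 bp downstream of its TSS, while the strongest summit of each of the other 45 bound members lay upstream. The tail gene without a peak in the IDR set was MED15. Among the subunits known mainly from animals, MED30 had 3698 (rank 97), with 1642, 1138 and 942 in the replicates, opposite Rev1, a gene of a DNA repair polymerase. MED27 had 1196. MED28 was the weakest bound member of all at 208, with 108, 83.3 and 28.7, so its relative signal in replicate 3 was 0.202 against 0.534 and 0.790 in the others.

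MED14, the backbone that joins the modules, was not bound and had a peak within 500 bp in replicate 2 alone, with a signal of 80.1. Outside the prefix, MED29 is annotated as ix, which was not bound and had a relaxed pooled signal of 178. In the kinase module, whose genes have other symbols, skd (921), CycC (373) and Cdk8 (364) were bound, and kto was not.

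Among the TFIID genes with a histone fold, Taf11 was strongest, with a signal of 1967 (rank 538). Its signal was 732, 779 and 449 in the replicates, with relative signals of 3.61, 7.39 and 3.16 (mean 4.72 ± 2.32, SD, n = 3). Taf9 had 1174, Taf4 918, Taf6 464, Taf13 452 and Taf12 295. Taf12 was the weakest bound Taf gene, with 138, 97.0 and 71.6. Taf10 and Taf10b are paralogs that face each other with TSSs 45 bp apart and share 1 peak of signal 381. Taf3 and Taf8 were not bound.

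Of the other TFIID genes, Taf2 had a signal of 1353 and relative signals of 2.93, 2.66 and 3.48 (mean 3.03 ± 0.417, SD, n = 3). Taf5, which encodes the WD40 subunit, had 1309 and relative signals of 2.96, 2.28 and 3.30 (mean 2.85 ± 0.519, SD, n = 3). In both Taf2 and Taf5 replicate 2 was the lowest, while at Taf7, with a signal of 447, it was the highest, with relative signals of 0.921, 1.44 and 0.733. Taf1, which encodes the largest TAF, was not bound and had a peak in replicate 2 alone (88.6).

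**Figure D2:**
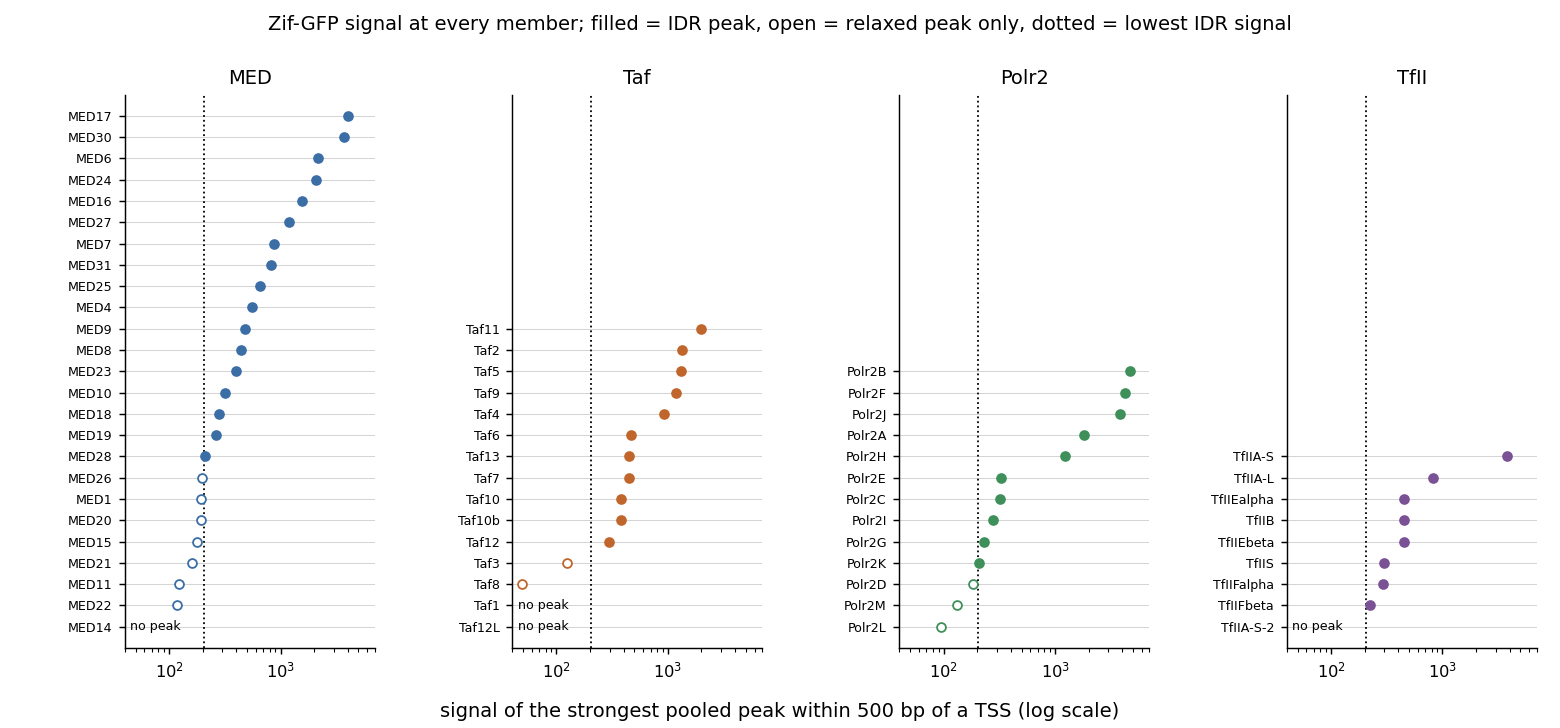
Signal of the strongest pooled peak within 500 bp of a TSS (x axis, log scale) for each of the 62 members (y axis), by prefix. Filled points are IDR peaks, open points relaxed peaks outside the IDR set, and the dotted line marks the lowest IDR signal of 204; 6 members lie above 3000 and 4 have no pooled peak.

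Over the 46 bound members the signal ran from 208 to 4658, with a median of 474 against 517 over all bound genes. A small top group stood out from the rest: Polr2B, Polr2F, MED17, Polr2J, TfIIA-S and MED30 had 3698 to 4658, and the next member, MED6, had 2155. Of the bound members 13 had a rank of 1 to 1000 (28.3%), against 20.8% of all bound genes, and 24 had signals under 500. The median relative signal was 1.04, 1.46 and 1.24 in replicates 1, 2 and 3, a mean of 1.24 ± 0.209 (SD, n = 3), against 1.20 ± 0.184 over all bound genes. The members' median was below that of all bound genes in replicate 1 (1.04 against 1.11). It was above it in replicate 2 (1.46 against 1.41) and replicate 3 (1.24 against 1.08). Typical signal at the members thus had no constant direction against all bound genes.

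The balance between replicates followed that of the whole set. Over the 45 bound members with a peak in every replicate, the log2 relative signal of replicate 2 minus that of the mean of replicates 1 and 3 had a median of 0.56, and replicate 2 was higher at 39 of them (86.7%). Over all bound genes the median was 0.48 and the share 74.2%. Taf2, Taf5, Taf4, MED27, Polr2I and TfIIB were the members at which replicate 2 was lower. With each replicate scaled to its median over promoter IDR peaks, the members' median fell to 0.26.

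**Figure D3:**
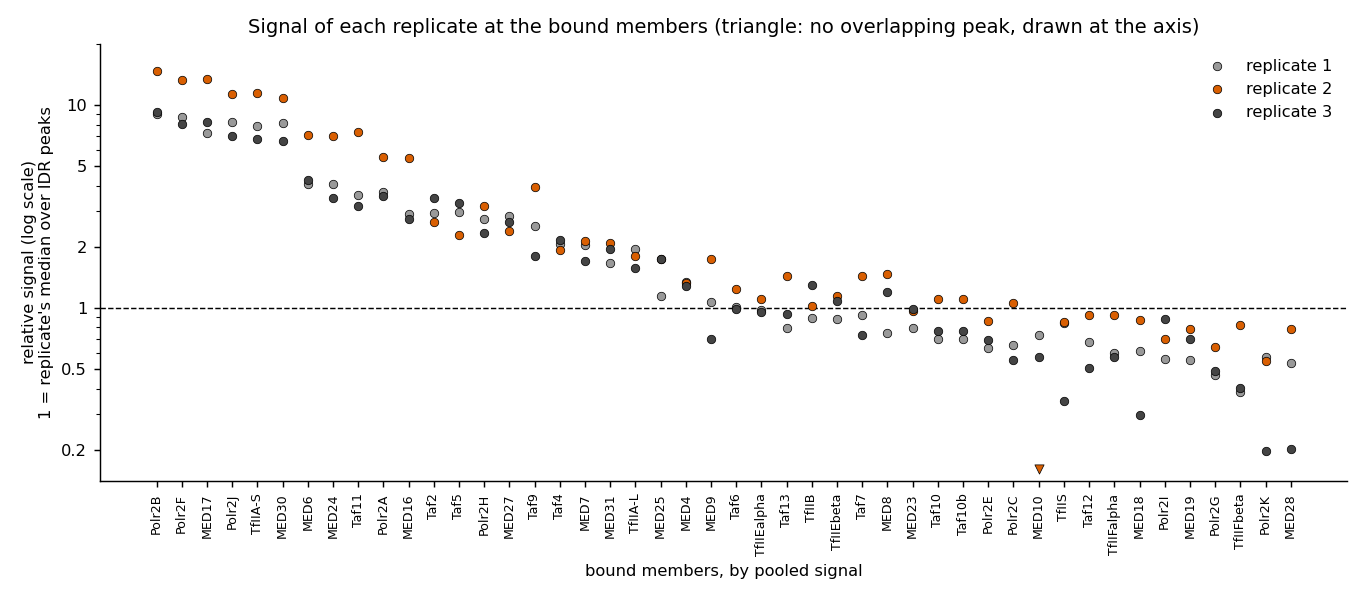
Relative signal (y axis, log scale, 1 = median of the replicate over its IDR peaks) of each replicate at the 46 bound members, in order of pooled signal (x axis). Replicate 2 is above both others at the strongest 11 members, and the triangle marks MED10, where replicate 2 had no peak.

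Summits lay just upstream of the TSS. The median offset of the strongest summit was −102 bp (interquartile range −144 to −42.5), against −111 bp over all bound genes. In the own lists of replicates 1, 2 and 3 the medians were −100, −84 and −117 bp. At 11 members the summit fell in an annotated exon of some gene. Beyond the window no member had an IDR summit in its gene body.

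**Figure D4:**
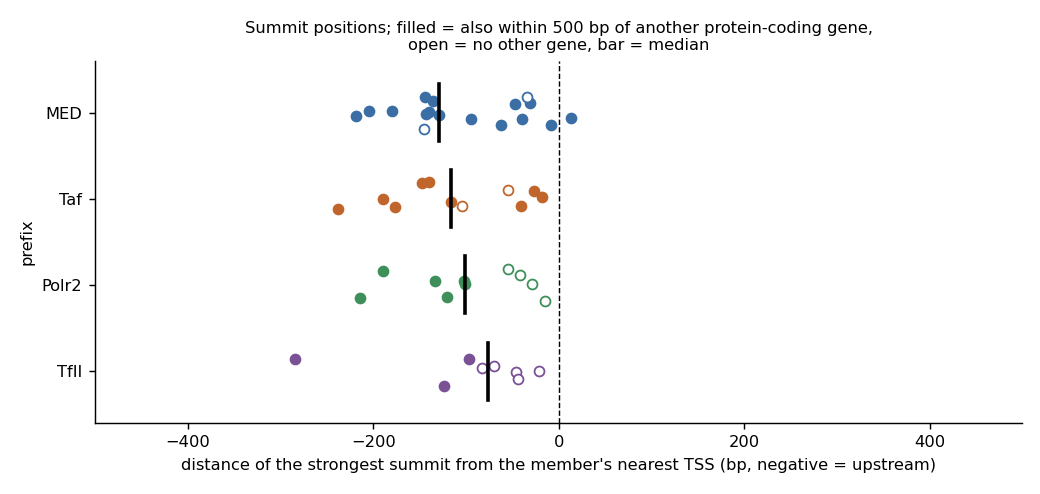
Distance of the strongest summit from the nearest TSS of the member (x axis, bp, negative is upstream) for the bound members of each prefix (y axis). Filled points are summits also within 500 bp of another protein-coding gene, open points have no other gene, and bars are medians; 45 of 46 summits lie upstream.

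The 16 unbound members were MED1, MED11, MED14, MED15, MED20, MED21, MED22, MED26, Taf1, Taf3, Taf8, Taf12L, Polr2D, Polr2L, Polr2M and TfIIA-S-2. Of these, 12 had a peak in the relaxed pooled list, which covered 58 members (93.5%, background 56.3). At the edge of the IDR set, whose lowest signal was 204, MED28 (208) and Polr2K (209) were just inside, and MED26 (196), MED1 (193) and MED20 (193) were just outside. MED20 shares its relaxed peak with Trf, a gene of a TBP relative. MED15 had the nearest IDR summit outside the window, at 528 bp with a signal of 880, and Taf8 had one at 679 bp with a signal of 223.

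Signals of the relaxed peaks at unbound members are given as deposited, not scaled between replicates. MED26 had 134, 41.2 and 62.6 in replicates 1, 2 and 3, and MED1 had 105.4, 56.8 and 31.0. MED20 had 58.7, 88.9 and 50.1, and MED11 had 41.0, 65.1 and 34.6. As deposited, replicate 1 had the highest value at MED26 and MED1, and replicate 2 at MED20 and MED11. MED15 had 97.1, 40.6 and 143, MED21 had 98.3, 48.9 and 41.9, and MED22 had 42.6 and 40.4 with no peak in replicate 3. Taf3 had 82.5, 43.0 and 23.8, and Taf8 had 26.6, 21.9 and 30.2. Polr2L had 41.3, 39.95 and 20.7. Taf12L, a testis relative of Taf12, had no peak in any list. In their own lists, replicate 1 covered 4 of the 16, replicate 2 covered 6 and replicate 3 covered 1.

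Related genes outside the prefixes were counted from lists of roles. All 10 TFIIH genes were bound, with Ssl1, a core subunit gene, strongest at 3981. SAGA, a coactivator complex that shares several TAFs, had 12 of 16 genes outside the TAFs bound, led by Ada3 (1785). Of TBP and its relatives 2 of 3 were bound, with Tbp at 338 and Trf2 at 282. All 9 matched elongation factor genes were bound, led by Spt5 (697). The testis TAF relatives, among them Taf12L, gave 0 of 5. The preinitiation and SAGA lists together had 27 of 37 genes bound (73.0%, background 41%). The Polr1 and Polr3 genes of the other polymerases had 13 of 17 (76.5%, background 41%). These shares lie close to the 74.2% of the members, and nothing in these counts was particular to polymerase II or Mediator genes.

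Sequence motifs were counted within 75 bp of the 45 distinct member summits, on both strands. The DRE core TATCGATA was present at 3 (6.67%), those of MED7, MED18 and MED28, against 10.96% of all bound summits and 5.03% of all protein-coding promoters. The promoter windows had the same length but were centred a fixed distance upstream of the most upstream TSS, not on a summit. A count of 3 is too small to set the members' share apart from either of the other shares. That share depended on the window: it was 4.44% within 40 bp of the summit and 15.6% within 150 bp. The members are a chosen list and not random draws, so no interval is given. CGATA, part of the DRE, was at 31.1% of member summits and 41.3% of all bound summits. The core promoter motif 1 (GGTCACAC) was at 8.89% against 7.76%, CAGCTG (an E-box) at 4.44% against 10.9%, GAGAG at 4.44% against 11.4%, and TATAAA at 33.3% against 29.5%. Windows at members had a median GC content of 32.5%, against 34.4% at all bound genes. The 6-base word most frequent at summits away from promoters relative to their flanks, ATATTA, was at 37.8% of member summits against 27.0%.

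The 8-base word CAACACTG shown above lay within 75 bp of 2 of the 13 member summits of rank 1 to 1000 (15.4%), those of MED6 and MED24, against 24.2% of 763 summits of other bound genes in the same ranks. It lay at 0 of the 32 member summits of lower rank, against 2.37% of the other genes. So few summits cannot tell 0 from a low share. The search was made after the data were seen and in several forms: 7 definitions (the word, each 7-base part, either part, the 6-base core, up to 1 mismatch, and a 10-base word) in 4 windows from 40 to 300 bp. Over these 28 combinations the count at the 13 strong member summits ran from 0 to 12, and the members' share was above that of the other genes in 12 and below it in 16. The sites printed above use either 7-base part within 150 bp, which gives 9 of 13 (69.2%) against 52.8%. Polr2F and MED30, of the 6 strongest members, and Taf2 and Taf5 had no such site. The same letters within 75 bp give 3 of 13 (23.1%) against 39.3%. The word was picked for its frequency at strong promoter summits of other genes, so their higher share at strong than at weak summits follows from the choice and is given as a description. Nothing particular to the members is read from it.

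**Figure D5:**
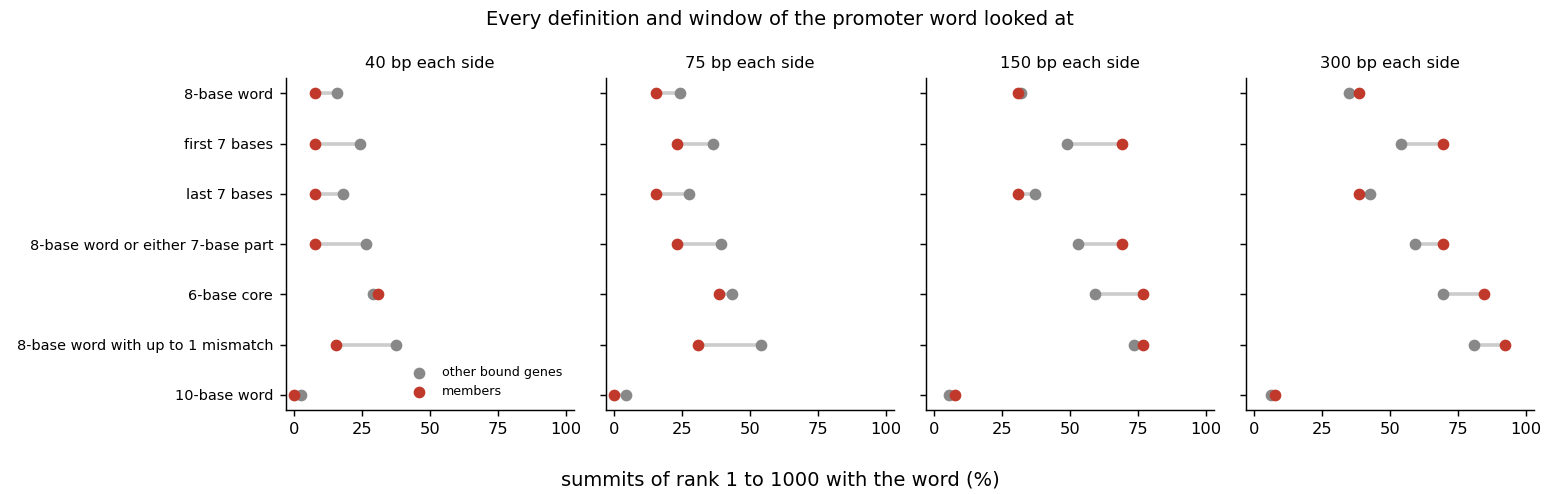
Percent of summits of rank 1 to 1000 that hold the word (x axis) in each of the 7 definitions (y axis) and 4 windows (panels), for the 13 member summits and the 763 summits of other bound genes. The members lie below the other genes in 16 of the 28 combinations and above in 12, mostly in the 150 and 300 bp windows.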

How the data were processed

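Peak lists from 3 biological replicates of 1 group were used. Per the labels, coordinates are on dm6, the anti-GFP precipitation had a control library, not analysed here, and the pooled and IDR lists derive from replicates 2 and 3. The values differ from this: at 7502 IDR peaks the pooled signal divided by the summed signal of replicates 1, 2 and 3 had a median of 0.991, against 1.82 without replicate 1, so no replicate counts as independent of the IDR set. The signal values, as deposited, were taken as the caller's enrichment, with no scaling between lists by the authors known. The deposited −log10 q values were not used for ranking. Not given in the sources used here are the aligner, the caller, their versions and the IDR cutoff.

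The members and role lists were chosen with earlier results of these data known. Gene models were Ensembl release 115 on the main chromosome arms. Of 118 listed role symbols, 105 matched by symbol, 11 by a RefSeq synonym and 2 were left out. At each IDR peak a replicate got the signal of its strongest peak overlapping by at least 1 bp, or 0. Named genes were all members, with replicate values for the 4 strongest MED, 3 Taf, 3 Polr2 and 3 TfII genes present in each replicate, the weakest of each prefix, those at the limits, and unbound members with a relaxed peak. Polr2A was added after its values were seen. For other lists the strongest gene was named, and a few others after their values were seen. Summits, offsets and replicate signals were checked on simulated data. Python 3.11.15, NumPy 2.4.6, pandas 2.3.3, SciPy 1.17.1 and Matplotlib 3.10.9 were used. Alternatives covered the window, the TSS, the gene assignment, the list depth and each replicate left out. The sequences of 2 further word sites at member summits of rank 1 to 1000 are not reported here.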

Additional observations from a re-analysis of the deposited data

How the results depend on the processing

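Counts of bound members changed most with the gene assignment and with the depth of the peak list. With each summit given to its nearest gene only, 29 members were bound (46.8%) in place of 46, against 31.4% of all protein-coding genes. They included 11 MED genes (44%) and 3 Taf genes (20%). Of the 37 genes of the other preinitiation and SAGA lists 14 were bound (37.8%). With the strongest 4315 summits of the IDR set, 30 members (48.4%) were bound, against 26.002% of all protein-coding genes, with 5 Polr2 and 5 TfII genes, and 6 Polr1 and Polr3 genes. The mean share bound in the replicates' own lists was 46.8% with 4315 peaks each and 93.5% with the whole relaxed lists. For the replicates' own lists at these depths the share of all genes was not computed. The median excess of replicate 2 on the log2 scale was 0.26 with scaling by promoter peaks and ran from 0.50 to 0.62 with replicate 3 or replicate 1 left out; the cause was not tested. Leaving out 1 replicate and ranking pooled peaks by the others gave 38 to 41 bound members (61.3% to 66.1%), while the share of all protein-coding genes fell from 41.0% to between 33.8% and 36.6%, with MED28, Polr2K, Polr2G and TfIIFbeta lost each time and MED15 gained. The windows of 200 and 1000 bp, the most upstream TSS, and summit matching within 150 bp kept counts within 1.5 times and medians within the spread between replicates. The 8-base word, added after seeing the data, is the measure that depends most on its definition: its count at the 13 strong member summits went from 2 to between 0 and 12, and no definition was chosen independently of the data. No paired analysis was possible because all replicates belong to 1 group. Signal has no read counts behind it, so counting error is unknown.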
